A study of Mus musculus with 3 samples.

Results

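Kinesins are motor proteins that step along microtubules on energy from ATP. The genes described here are the kinesin motor genes named Kif with a number and at most the letter a, b or c, taken from the deposited tables by symbol. They number 35 of the 15058 genes listed. By textbook role they were sorted into 12 mitotic kinesins, 13 transport kinesins and 10 others, most of which act at cilia or on microtubule growth.

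Mitotic kinesins build the spindle, move chromosomes and finish cytokinesis. Transport kinesins carry vesicles, endosomes and mitochondria outward along microtubules. Erythroblasts, which still have a nucleus and will become red cells, divide several times while they fill with haemoglobin, and the spindle motors are part of that programme. Drosha is the nuclease of the Microprocessor, the nuclear complex that cuts primary microRNA transcripts and also some messenger RNAs, and Kif1b has been reported as such a Microprocessor target.

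The RNA came from sorted mouse erythroblasts of E10.5 blood, with 1 library from a pool of 5 embryos in each of 3 groups. The Drosha-null library is from CD71+ Ter119-high cells of Drosha fl/fl;cdh5-cre+ embryos (cKO), in which the label gives Drosha as null. The Ter119-low library is from CD71+ Ter119-low cells of embryos with that same genotype, but the label gives Drosha there as being at the wild-type level. The control library is from CD71+ Ter119-high cells of Drosha fl/fl or Drosha fl/+ embryos, so its pool may mix genotypes. The Cre is driven by Cdh5, an endothelial gene, and deletion in blood cells then depends on their descent from cells that used that promoter. Ter119 marks the red-cell lineage and rises as its cells mature, and CD71 (Tfrc) takes up iron-loaded transferrin. In the comparison of the Ter119-low library with the control, genotype and gate differ together and cannot be told apart. There were no replicates, so the intervals below cover counting error only and no p-value across conditions was computed.

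Short stretches of 5 promoters are shown for a pair of motifs that the classes hold to different extents. This property was not used to choose the kinesin genes, but it was used to choose the windows. The 3 mitotic windows were picked for holding both motifs near the start. Each runs from 120 bases before to 24 bases after an annotated RefSeq start on GRCm38.p6, 5′ to 3′ on the gene's strand. Capitals mark TTTGAA, the core of the cell-cycle genes homology region (CHR), or its reverse complement TTCAAA, and CCAAT, the box bound by NF-Y, or its reverse complement ATTGG. The first 3 are mitotic kinesins, Kif11 at chr19:37376262-37376406 (plus strand), Kif18b at chr11:102925100-102925244 (minus strand) and Kif23 at chr9:61946775-61946919 (minus strand). The other two are transport kinesins called higher in the Drosha-null library, Kif1b at chr4:149307709-149307853 (minus strand) and Kif3a at chr11:53567249-53567393 (plus strand).
Kif11: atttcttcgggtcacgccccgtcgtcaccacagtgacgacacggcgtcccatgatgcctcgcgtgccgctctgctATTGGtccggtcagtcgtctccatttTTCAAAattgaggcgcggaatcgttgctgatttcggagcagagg
Kif18b: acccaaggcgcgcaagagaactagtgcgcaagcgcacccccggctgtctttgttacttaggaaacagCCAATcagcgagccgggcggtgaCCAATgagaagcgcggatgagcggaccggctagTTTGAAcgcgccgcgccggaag
Kif23: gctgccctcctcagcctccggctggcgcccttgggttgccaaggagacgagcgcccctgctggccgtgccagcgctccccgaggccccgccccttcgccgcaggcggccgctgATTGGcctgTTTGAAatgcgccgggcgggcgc
Kif1b: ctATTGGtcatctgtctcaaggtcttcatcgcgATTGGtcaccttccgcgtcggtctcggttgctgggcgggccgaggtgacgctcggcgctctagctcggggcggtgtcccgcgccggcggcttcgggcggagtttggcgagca
Kif3a: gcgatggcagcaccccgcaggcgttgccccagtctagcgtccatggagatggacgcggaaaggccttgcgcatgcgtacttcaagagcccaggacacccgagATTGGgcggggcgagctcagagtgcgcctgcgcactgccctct
By that choice, the mitotic windows hold a CHR match within 20 bases of the start with a CCAAT match beside or before it. The windows of Kif1b and Kif3a hold CCAAT matches alone. Not shown are the mitotic Kif2a and Kif18a, whose promoters hold neither motif, and Kif15, Kif20b and Kif2c, whose promoters hold no CCAAT match.

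MicroRNA seed matches in these genes bear on a comparison of cells with and without Drosha. The microRNA miR-16-5p, abundant in red cells, is shown with its seed in capitals, followed by the matches to that seed in the 3′ untranslated regions of Kif1b, a gene called higher in the Drosha-null library, and Kif3c, a gene called lower.
mmu-miR-16-5p: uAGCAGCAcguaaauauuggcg
Kif1b site 1: gcaacagaggcTGCTGCTagccctttaag
Kif1b site 2: atcactgatgtTGCTGCTgttaggaaggt
Kif1b site 3: actttgttaccTGCTGCTtcttgtctaat
Kif1b site 4: aatgattgtgtTGCTGCTcttggaaggtc
Kif3c site 1: ttaatagtactTGCTGCTgttccagaggg
Kif3c site 2: tatgcagaagcTGCTGCTaagcacacagt
Kif3c site 3: gttgtgctctcTGCTGCTccactggactg
The capitals in each site are the 7 bases complementary to the seed. On GRCm38 the Kif1b sites lie on the minus strand at chr4:149179882-149179910, chr4:149178535-149178563, chr4:149177495-149177523 and chr4:149177226-149177254. The Kif3c sites lie on the plus strand at chr12:3404614-3404642, chr12:3405229-3405257 and chr12:3405663-3405691.

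The libraries held 9325822 counts in the Drosha-null, 9418480 in the Ter119-low and 9497431 in the control library. Drosha itself had 122, 244 and 324 counts in that order, a log2 ratio of -1.81 for Drosha-null over control and -0.49 for Ter119-low over control, so its transcript was still read in the library labelled null. All 10 erythroblast markers examined, globins and Slc4a1 among them, were lower in the Drosha-null library than in the control with TMM scaling, and all but Gata1 also by total counts. Their summed level with TMM scaling was 141154 CPM in the Drosha-null, 241380 in the Ter119-low and 278190 in the control library. Their unscaled counts summed to 1573158, 2150514 and 2337204 in that order. Marker sums of other cells were far lower. The 9 endothelial markers summed to 19.9, 8.75 and 8.81 CPM, with 1, 4 and 4 of them at 3 counts or fewer. The 8 cardiac markers summed to 29.0, 6.62 and 8.93 CPM, with Smyd1 at 0 in the Ter119-low and control libraries, Tnnt2 at 0 in the Ter119-low library and Myh6 at 0 in the Drosha-null and Ter119-low libraries. The 9 listed neural markers summed to 34.1, 30.3 and 32.6 CPM, the 5 white-cell markers to 4.40, 0.673 and 3.21 CPM and the 5 megakaryocyte markers to 12.4, 13.4 and 11.7 CPM. What part the endothelial, cardiac and white-cell RNA has in the kinesin ratios was not tested. In bulk RNA, fewer cells of a type and less RNA per cell cannot be told apart.

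Levels between genes are compared here per length, as the deposited FPKM, a read count scaled to gene length and library size. Mitotic kinesins made up most of the kinesin message in every library. In FPKM they summed to 294.91 in the Drosha-null, 253.73 in the Ter119-low and 218.56 in the control library, against 68.4, 29.98 and 29.96 for transport kinesins and 11.9, 6.20 and 5.35 for the others. In the control the 12 mitotic kinesins spanned 6.95 to 49.1 FPKM, and of the transport kinesins Kif5b alone reached that range.

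Kif2a, a kinesin that depolymerises microtubules at spindle poles and is also used by neurons, stood highest in every library, at 54.2 FPKM in the Drosha-null, 59.0 in the Ter119-low and 49.1 in the control library. Kif11 (Eg5), which slides antiparallel spindle microtubules apart, came next at 51.8, 43.65 and 37.8 FPKM. Kif15, which supports spindle bipolarity beside Kif11, had 17.8, 21.8 and 21.2 FPKM. It had rank 9 among the kinesins in the Drosha-null library and rank 3 in the control, and Kif5b, Kif20a, Kif22, Kif18b, Kif23 and Kif4 passed it.

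The most abundant transport kinesins in the control were Kif5b, Kif1b and Kif3c. Kif5b, the widely expressed heavy chain of conventional kinesin, had 43.9 FPKM in the Drosha-null, 18.7 in the Ter119-low and 17.85 in the control library. Kif1b, which carries mitochondria and synaptic vesicle precursors, had 8.64, 3.17 and 2.45 FPKM. Kif3c, a kinesin-2 subunit best known from neurons, had 1.12, 1.44 and 1.83 FPKM, the reverse order of libraries.

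Of the 35 genes, 26 had their highest FPKM in the Drosha-null library. FPKM is scaled to all counts, and the abundant globin messages took a smaller share there. The 10 most abundant genes held 45.9% of the counts in the Drosha-null, 52.6% in the Ter119-low and 54.7% in the control library. Those 10 were taken over all genes, ribosomal RNA included, and ribosomal RNA held 27.9%, 28.5% and 28.7% of the counts. The globin Hba-x had 869310, 1077084 and 1083439 counts and the globin Hbb-y 525547, 761814 and 855491. The ratios below therefore use TMM scaling, which sets the bulk of genes equal, and CPM values, counts scaled to library size alone, are on that scale. On it the mitotic sum was 1003, 1080 and 1005 CPM, the transport sum 364, 200.2 and 212 CPM and the sum of the others 64.3, 42.0 and 40.0 CPM. The Drosha-null library thus stood apart in the transport sum and in the sum of the others, and not in the mitotic sum. Kif5b alone held 219, 118 and 121 CPM of the transport sum.

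**Figure D1:**
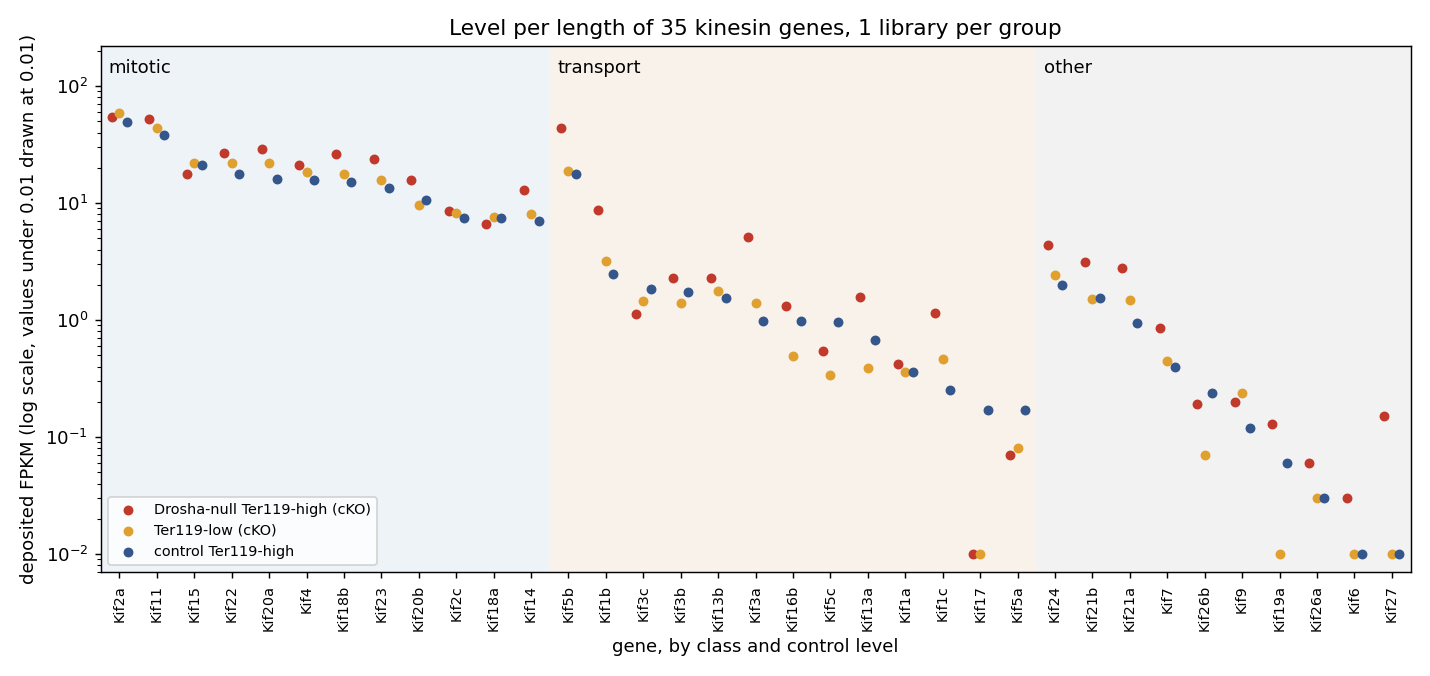
Deposited FPKM (log scale) of each kinesin gene by class, ordered by control level; red points are the Drosha-null, amber the Ter119-low and blue the control library, 1 library each. Mitotic kinesins lie between 6.95 and 49.1 FPKM in the control, and among transport kinesins only Kif5b, at 17.85, lies in that range.

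Under 1 CPM in all libraries, and so without a ratio, were 6 members: the ciliary or dendritic motor Kif17 (0 counts in the Drosha-null, 0 in the Ter119-low and 6 in the control library), Kif19a (4, 0 and 2), Kif26a (4, 2 and 2), Kif27 (6, 0 and 0), Kif6 (1, 0 and 0) and Kif9 (5, 7 and 3). Kif6, Kif9, Kif19a and Kif27 are known from cilia. A count of 0 allows up to 3 counts, and none of these genes had more than 7. The other 29 genes, all 12 mitotic, 12 transport and 5 other kinesins, were measured at 1 CPM or more in at least 1 library of each comparison with the control.

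In the Drosha-null library against the control, 4 of 29 measured kinesins were called higher (13.8%), where 12.4% of the 10769 measured genes were. Called lower were 2 of 29 (6.90%), where 7.81% of all genes were. A call here means a ratio of 2 or more either way with a 95% counting interval that excludes 1. Both shares lie near those of all genes. The calls were Kif3a, Kif1c, Kif1b and Kif21a higher and Kif3c and Kif5c lower. Transport kinesins held 5 of the 6 (3 of 12 higher, 2 of 12 lower) and mitotic kinesins 0 of 12.

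Kif3a, a motor subunit of the heterotrimeric kinesin-2 that drives intraflagellar and vesicle transport (chr11:53567379-53601967, plus strand), had 256 counts in the Drosha-null, 71 in the Ter119-low and 50 in the control library. These are 23.0, 7.97 and 5.95 CPM. It was highest in the Drosha-null library, by a log2 ratio over control of 1.94 (95% interval 1.51 to 2.42), the highest of all measured kinesins.

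Kif1b (chr4:149176319-149307693, minus strand) had 738, 270 and 207 counts in the Drosha-null, Ter119-low and control libraries, or 66.2, 30.3 and 24.6 CPM. The Drosha-null value lay above both of the others, and the Ter119-low value only a little above the control. Its log2 ratio was 1.42 (1.20 to 1.66) for Drosha-null over control and 0.30 (0.03 to 0.57) for Ter119-low over control, the last not a call.

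Kif1c, which carries dense core vesicles and integrins (chr11:70700548-70731964, plus strand), had 71, 29 and 16 counts. The 3 libraries stood in the same order as for Kif1b and Kif3a, on far fewer counts. Its log2 ratio for Drosha-null over control was 1.71, with a wide interval of 0.94 to 2.62.

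Kif21a, a regulator of microtubule growth (chr15:90933276-91049948, minus strand), had 159, 85 and 55 counts. Its log2 ratio for Drosha-null over control was 1.12 (0.67 to 1.59). The Ter119-low library lay between them, at 0.54 (0.04 to 1.06) over control.

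Kif3c (chr12:3365132-3406494, plus strand) had 71 counts in the Drosha-null, 92 in the Ter119-low and 118 in the control library. It ran opposite to Kif3a, the subunit of the same family, with a log2 ratio of -1.14 (-1.59 to -0.70) for Drosha-null over control. Kif5c, a heavy chain of conventional kinesin mostly studied in neurons (chr2:49619298-49774778, plus strand), had 34, 22 and 63 counts. It was lower than the control in both cKO libraries, by a log2 ratio of -1.29 (-1.94 to -0.67) for Drosha-null over control and -1.58 (-2.37 to -0.88) for Ter119-low over control. Of the 8 measured neural markers 5 were below 0 and 3 above 0 for Drosha-null over control. Elavl3 was called lower at -2.73 on 2 and 12 counts, and Dcx was at -0.66 (-1.29 to -0.04). Nes, on 174 and 85 counts, was at 0.62 (0.24 to 1.02). For Ter119-low over control 4 of 8 were below 0, with Pax6 called lower at -1.83 on 5 and 18 counts. Their part in the lower kinesin calls was not tested.

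Kif5b fell short of the ratio of 2 but not of precision. It had 2444, 1052 and 1013 counts, and its log2 ratio for Drosha-null over control was 0.86 (0.76 to 0.97). The Ter119-low library matched the control at -0.03 (-0.16 to 0.10). Kif13a, an endosome motor, was at 0.75 (0.24 to 1.31) in the Drosha-null library over control, on 99 and 44 counts, and was not called there either. The remaining transport kinesins Kif13b, Kif16b, Kif3b, Kif1a and Kif5a had intervals that held 1, with Kif5a on only 4 and 10 counts.

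Among the others, Kif24, which restrains cilium assembly, had 226, 126 and 106 counts and a log2 ratio of 0.68 (0.35 to 1.03), and Kif21b, a paralog of Kif21a used by neurons and lymphocytes, had 263, 130 and 134 counts and 0.56 (0.26 to 0.88). Kif7, which acts in Hedgehog signalling at the cilium tip, had 36, 19 and 17 counts and 0.65 (-0.19 to 1.60). All 3 had their highest scaled level in the Drosha-null library, and none was called.

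Mitotic kinesins kept within a narrow band, from -0.69 to 0.47 on the log2 scale for Drosha-null over control, against -1.63 to 1.94 for transport kinesins, where the lowest was Kif5a on few counts and the next Kif5c at -1.29. The medians of both classes were 0.08, beside -0.02 for all measured genes. The transport median depended on which genes were counted: with a filter of 5 CPM in place of 1 it was 0.45, and with all non-mitotic members counted as transport it was 0.56, while the mitotic median stayed at 0.08. No mitotic kinesin was called, but the counts were high enough for 7 of 12 intervals to exclude 1 below that ratio. Above were Kif14, Kif20a, Kif23 and Kif18b at 0.34 to 0.47, and below were Kif15, Kif18a and Kif2a.

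Of the mitotic kinesins with the highest level, Kif11 (chr19:37376403-37421859, plus strand) had 2314, 1970 and 1722 counts, and its log2 ratios were 0.02 (-0.07 to 0.11) for Drosha-null and 0.11 (0.02 to 0.20) for Ter119-low over control. Its level was close to the control in both cKO libraries once scaled. Kif2a (chr13:106958996-107022126, minus strand) had 1871, 2058 and 1729 counts, with -0.29 (-0.39 to -0.20) for Drosha-null and 0.17 (0.07 to 0.26) for Ter119-low over control. Kif15 (chr9:122951046-123018733, plus strand) had 792, 980 and 962 counts, with -0.69 (-0.83 to -0.55) and -0.06 (-0.19 to 0.07). Kif15 was the lowest mitotic kinesin in the Drosha-null library and near the control in the Ter119-low library.

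By role, 3 of the 4 cytokinesis motors had intervals above a ratio of 1 in the Drosha-null library over control, and none of the 4 was called. Kif14, which acts with citron kinase, was at 0.47, Kif20a (MKLP2), which brings the chromosomal passenger complex to the midzone, at 0.43, Kif23 (MKLP1), the motor of centralspindlin, at 0.41. Kif20b was at 0.14 (-0.02 to 0.30), an interval that held 1. Relative to genes of like length, Kif14 was at 0.17, Kif20a at 0.38, Kif23 at 0.35 and Kif20b at -0.08. Their counts in the Drosha-null, Ter119-low and control libraries were 1056, 667 and 576 for Kif14 and 927, 705 and 519 for Kif20a. Those of Kif23 were 751, 499 and 427 and those of Kif20b 814, 502 and 556. The chromosome motors Kif22 and Kif4 lay at 0.18 and -0.02, the centromere depolymerase Kif2c at -0.25 and Kif18a, which dampens chromosome movements, at -0.62. Kif18b, which limits astral microtubules, was at 0.34, opposite in sign to its paralog Kif18a.

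**Figure D2:**
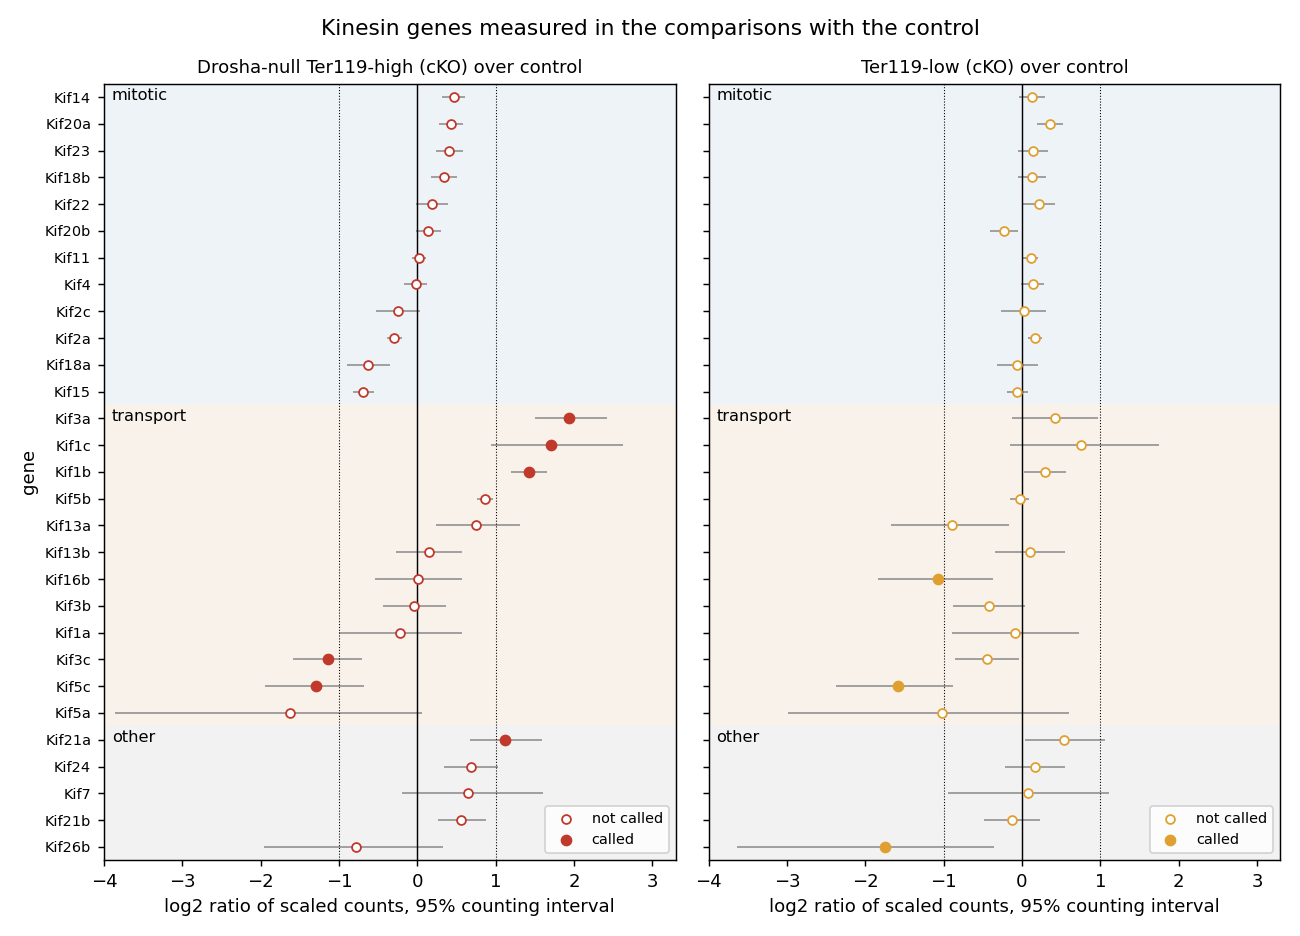
Log2 ratio of scaled counts with the 95% counting interval for the 29 kinesins measured against the control, grouped by class; Drosha-null over control on the left, Ter119-low over control on the right, filled points called, dotted lines at a ratio of 2. In the left panel mitotic kinesins lie between -0.69 and 0.47 and transport kinesins between -1.63 and 1.94.

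The Ter119-low library differed less from the control. There 0 of 29 kinesins were called higher, where 2.9% of the 10591 measured genes were, and 3 of 29 (10.3%) were called lower, where 2.76% of all genes were. The 3 were Kif5c, Kif16b and Kif26b, each on few counts. Kif16b, an early-endosome motor (chr2:142617474-142901531, minus strand), had 67 counts in the Drosha-null, 25 in the Ter119-low and 50 in the control library, and its log2 ratio for Ter119-low over control was -1.07 (-1.84 to -0.36), which by total counts became -0.97 and no call. Kif26b, a developmental protein with a divergent motor domain (chr1:178529125-178939200, plus strand), had 13, 5 and 17 counts and a log2 ratio of -1.75 (-3.64 to -0.35). It was no longer called by deposited FPKM with 0.1 added, and with a filter of 5 CPM it was not measured.

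Mitotic kinesins in the Ter119-low library spanned -0.23 to 0.36 with a median of 0.13 over control, and 9 of 12 were above 0. Transport kinesins spanned -1.58 to 0.75 with a median of -0.25, and 8 of 12 were below 0. The transport median was -0.42 with a filter of 5 CPM and -0.08 with all non-mitotic members counted as transport. The mitotic median minus the transport median was 0.38, and the median of all measured genes was 0.00. Both comparisons with the control share that library, so values of a gene that move the same way in them are not independent.

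The Drosha-null and Ter119-low libraries come from cKO embryos of the same genotype, sorted apart by Ter119. Their labels also differ in Drosha, null against the wild-type level, so gate and Drosha state cannot be told apart here. Between these libraries 28 kinesins were measured, since Kif5a had 4 and 5 counts. Called higher in the Drosha-null library were 4 of 28 (14.3%), where 10.8% of the 10795 measured genes were, and called lower were 0 of 28, where 5.94% of all genes were. All 4 were transport kinesins, namely Kif13a, Kif3a, Kif1b and Kif16b.

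Kif13a (chr13:46749087-46929867, minus strand) had 99 counts in the Drosha-null, 25 in the Ter119-low and 44 in the control library, and its log2 ratio for Drosha-null over Ter119-low was 1.64 (1.02 to 2.36). Kif3a was at 1.52 (1.14 to 1.93), Kif1b at 1.13 (0.92 to 1.33) and Kif16b at 1.08 (0.42 to 1.82). Relative to genes of like length, as described below, Kif1b and Kif16b were at 0.84 and 0.89 and no longer called. Kif1b and Kif3a stood above both other libraries, while Kif16b had nearly the control level in the Drosha-null library and was low in the Ter119-low library.

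The classes were farthest apart in this comparison. The median was -0.06 for the 12 mitotic and 0.89 for the 11 transport kinesins, a difference of -0.95 for mitotic minus transport, beside -0.02 for all measured genes. The difference was -0.78 relative to genes of like length, -0.69 with no filter and -0.70 with all non-mitotic members counted as transport. With a filter of 5 CPM it was -1.01. Of the transport kinesins 9 of 11 were above 0, all but Kif3c and Kif1a, and all 5 measured others lay between 0.52 and 0.97. Mitotic kinesins spanned -0.63 to 0.37, with 5 of 12 above 0. No test of the class difference was made, because genes of a class are not replicates of a library.

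The share of all kinesin counts needs no scaling between libraries, but it is weighted to the most abundant genes. It sets the Drosha-null library apart from the control too, where both class medians were 0.08. Mitotic kinesins took 70.1% (exact interval 69.4 to 70.8) in the Drosha-null, 81.7% (81.0 to 82.4) in the Ter119-low and 80.0% (79.2 to 80.7) in the control library. Transport kinesins took 25.4% (24.7 to 26.1), 15.1% (14.5 to 15.8) and 16.8% (16.1 to 17.6). Without Kif5b, which has most of the transport counts, their share was 11.9%, 6.82% and 8.02%, so the Drosha-null library stood highest with and without it. Of the 1610, 732 and 765 transport counts then left, Kif1b held 738, 270 and 207.

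Within paralog groups the make-up of the messages differed between libraries, again with no scaling involved. Of the summed counts of the kinesin-2 genes Kif3a, Kif3b and Kif3c, the Kif3a share was 57.4% (52.7 to 62.0) in the Drosha-null, 30.1% (24.3 to 36.4) in the Ter119-low and 19.2% (14.6 to 24.6) in the control library. The Kif3c share ran the other way, at 15.9% (12.6 to 19.7), 39.0% (32.7 to 45.5) and 45.4% (39.2 to 51.7). Kif3b, the usual partner of Kif3a, held 26.7%, 30.9% and 35.4%. By counts, the order of subunits was Kif3a, Kif3b, Kif3c in the Drosha-null library and the reverse in the Ter119-low and control libraries. Kif3a and Kif3b were close in the Ter119-low library, at 71 and 73 counts. Per length they were not in that order there, at 1.40 and 1.39 FPKM, beside 1.44 for Kif3c.

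Kif5b was nearly all of kinesin-1 in every library, at 98.5%, 97.5% and 93.3% of its counts, with Kif5c at 1.37%, 2.04% and 5.80%. Among Kif1a, Kif1b and Kif1c, Kif1b held 87.8%, 82.6% and 82.5%, intervals that overlap between the libraries, and Kif1a 3.80%, 8.56% and 11.2%. Kif13a held 45.4%, 21.4% and 35.2% of the counts it shares with Kif13b, an endosome and vesicle motor pair, so the Ter119-low library was the low one there. Kif18a held 20.7%, 31.0% and 33.8% of the counts it shares with Kif18b. In kinesin-6 the shares moved less, with Kif23 at 30.1%, 29.2% and 28.4%. Counts of Kif5b, Kif11, Kif18a and Kif24 were fractional in the files, so these are estimates rather than whole reads.

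**Figure D3:**
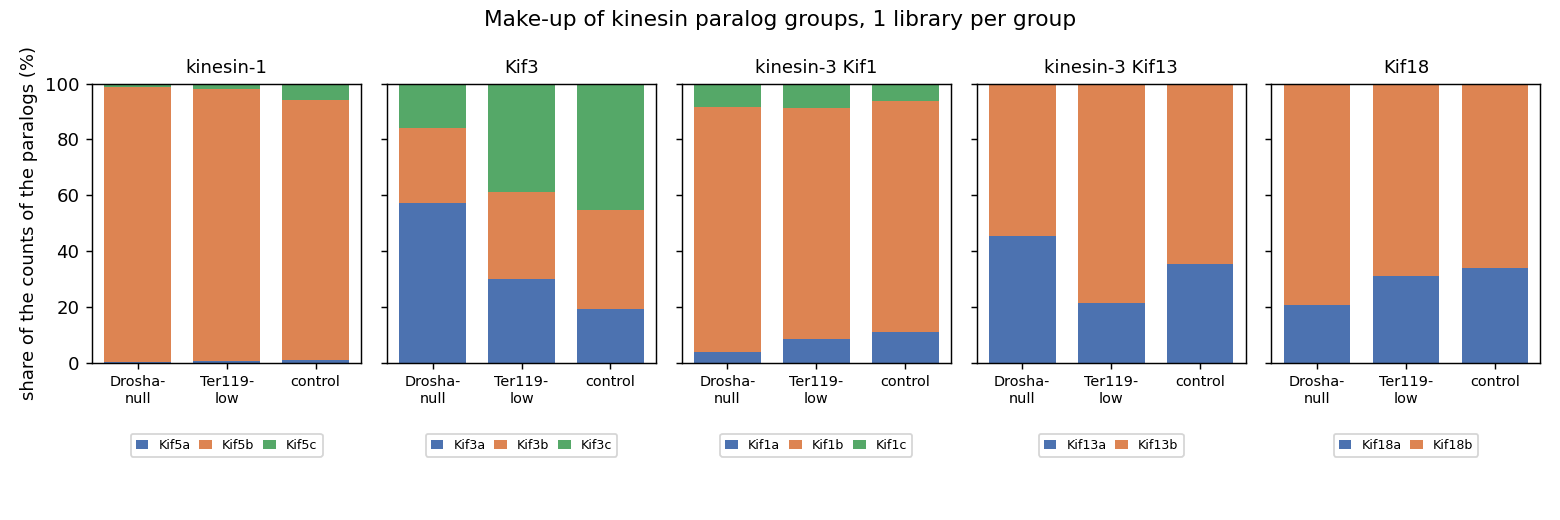
Share of counts (%) of each paralog within 5 kinesin groups, stacked to 100%, in the Drosha-null, Ter119-low and control libraries, 1 library each. Kif3a takes 57.4% of the Kif3 counts in the Drosha-null library and 19.2% in the control, while Kif5b takes over 93% of kinesin-1 in every library.

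Longer genes tended to have higher ratios in the Drosha-null library. Over all measured genes the Spearman correlation of the log2 ratio over control with deposited gene length was 0.306, as a description across genes of these libraries, and it was 0.124 for Ter119-low over control. The median log2 ratio for Drosha-null over control was -0.59 in the shortest and 0.29 in the longest of 10 length classes of equal size. Measured transport kinesins are long, with a median of 6549 bases against 3627 for mitotic kinesins and 2903 for all measured genes. Of the 29 kinesins, 10 fall in the longest class and 10 in the next.

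In those classes the kinesin medians were 0.12 and 0.14, beside 0.29 and 0.22 for all genes there. In the longest class 17.2% of all genes were called higher and 3.06% lower. With each ratio taken relative to the median of its own length class, Kif3a was still at 1.72, Kif1c at 1.41 and Kif1b at 1.13, Kif3c was at -1.43 and Kif5c at -1.58, and Kif21a, at 0.90, was no longer called, while Kif5a passed as lower on 4 and 10 counts. The median of mitotic kinesins was then -0.13.

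**Figure D4:**
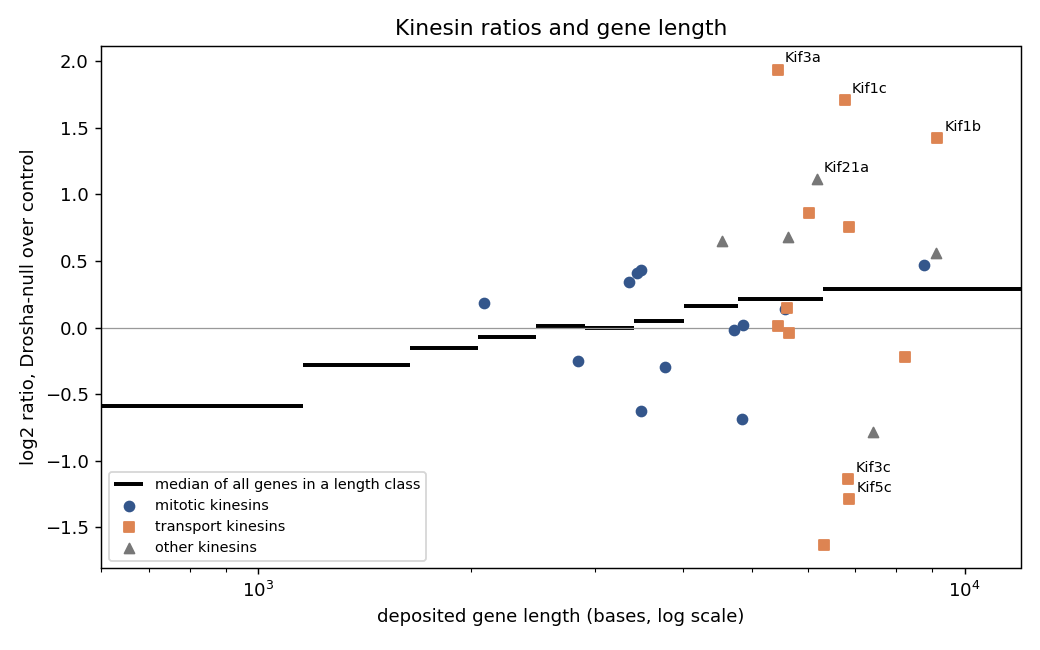
Log2 ratio of Drosha-null over control against deposited gene length (bases, log axis) for the measured kinesins, with black bars at the median of all measured genes in each of 10 length classes. The bars climb from -0.59 to 0.29, and Kif3a, Kif1c and Kif1b lie above and Kif3c and Kif5c below the bars at their length.

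Partners of the motors were examined as a list of 19 genes in the tables, written like the class list from textbook roles. Of the 17 measured in the Drosha-null library against the control, 3 partners passed as higher and 0 as lower (17.6% and 0%), where 12.4% and 7.81% of all genes did, and the median log2 ratio was 0.27. Kifap3, the accessory subunit that completes the kinesin-2 trimer with Kif3a and Kif3b, had 146, 72 and 52 counts and a log2 ratio of 1.07 (0.62 to 1.57) for Drosha-null over control. Klc3, a kinesin light chain, had 22, 14 and 5 counts (1.62, 0.29 to 3.49). Kifc1, a minus-end spindle motor, had 70, 37 and 24 counts (1.12, 0.45 to 1.87), but its near-identical copy Kifc5b makes its counts uncertain.

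Tpx2 and Trak2 were the most abundant partners in FPKM in the Ter119-low and control libraries, and Tpx2, Racgap1 and Prc1 in the Drosha-null library. None of these was called. For Drosha-null over control Tpx2, which brings Kif11 to the spindle, was at -0.05 and Trak2, which links kinesin-1 to mitochondria, at -0.70 (-0.81 to -0.59). Racgap1, the partner of Kif23 in centralspindlin, had 940, 444 and 426 counts and was at 0.73 (0.57 to 0.90), and Prc1, which bundles midzone microtubules, had 931, 442 and 391 counts and was at 0.84 (0.67 to 1.02). In the Ter119-low library 0 of 18 partners were called either way against the control, where 2.9% of all genes were called higher and 2.76% lower. For Drosha-null over Ter119-low, where 10.8% and 5.94% of all genes were, 0 of 18 were called higher and 1 lower, Kifc2, on 10 Drosha-null and 19 Ter119-low counts.

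The opposite motor, cytoplasmic dynein with dynactin, moves cargo inward. Of its 22 measured genes 0 were called in any of the 3 comparisons. Over all genes the shares called higher and lower were 12.4% and 7.81% for Drosha-null over control, 2.9% and 2.76% for Ter119-low over control, and 10.8% and 5.94% for Drosha-null over Ter119-low. The dynein and dynactin median for Drosha-null over control was 0.11. Dynll1, the most abundant member per length in every library, was at -0.07. Dynlrb1, second in the Drosha-null library, was at 0.42 (0.17 to 0.67), and Dctn3, second in the other two, at -0.18 (-0.39 to 0.03). A list of 30 mitosis genes also gave 0 calls in each comparison, beside those same shares over all genes, with a median of 0.19 for Drosha-null over control, 0.08 for Ter119-low over control and 0.07 for Drosha-null over Ter119-low. Mki67, the proliferation marker, was at -0.56 and Ube2c, an enzyme of mitotic exit, at 0.57 for Drosha-null over control.

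Promoters were found in RefSeq for 29 of the 35 genes, each covering 250 bases before to 50 after an annotated start. Not matched were Kif20a, Kif5a, Kif5b, Kif13b, Kif19a and Kif21b. The CHR core TTTGAA, on either strand, was in 9 of 11 mitotic kinesins (81.8%), 1 of 10 transport kinesins and 2 of 8 others, where 20.2% of 27025 genes hold it. CCAAT on either strand was in 6 of 11 mitotic (54.5%) and 3 of 10 transport kinesins, where 41.1% of all genes hold it. Both motifs were in 6 of 11 mitotic and 0 of 10 transport kinesins, where 8.97% of all genes hold both. Some annotated RefSeq starts lie inside the GENCODE gene, among the genes with TTTGAA those of mitotic Kif14, Kif2c and Kif4 (1505, 3867 and 328 bases), of Kif27 and of Kif1a, the single transport gene with it. With starts over 200 bases inside left out, an alternative chosen after seeing the data, TTTGAA was in 6 of 8 mitotic, 0 of 9 transport and 1 of 7 other kinesins. Kif2a and Kif18a were the mitotic kinesins without either motif. A match is a description of letters and not of a bound site.

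**Figure D5:**
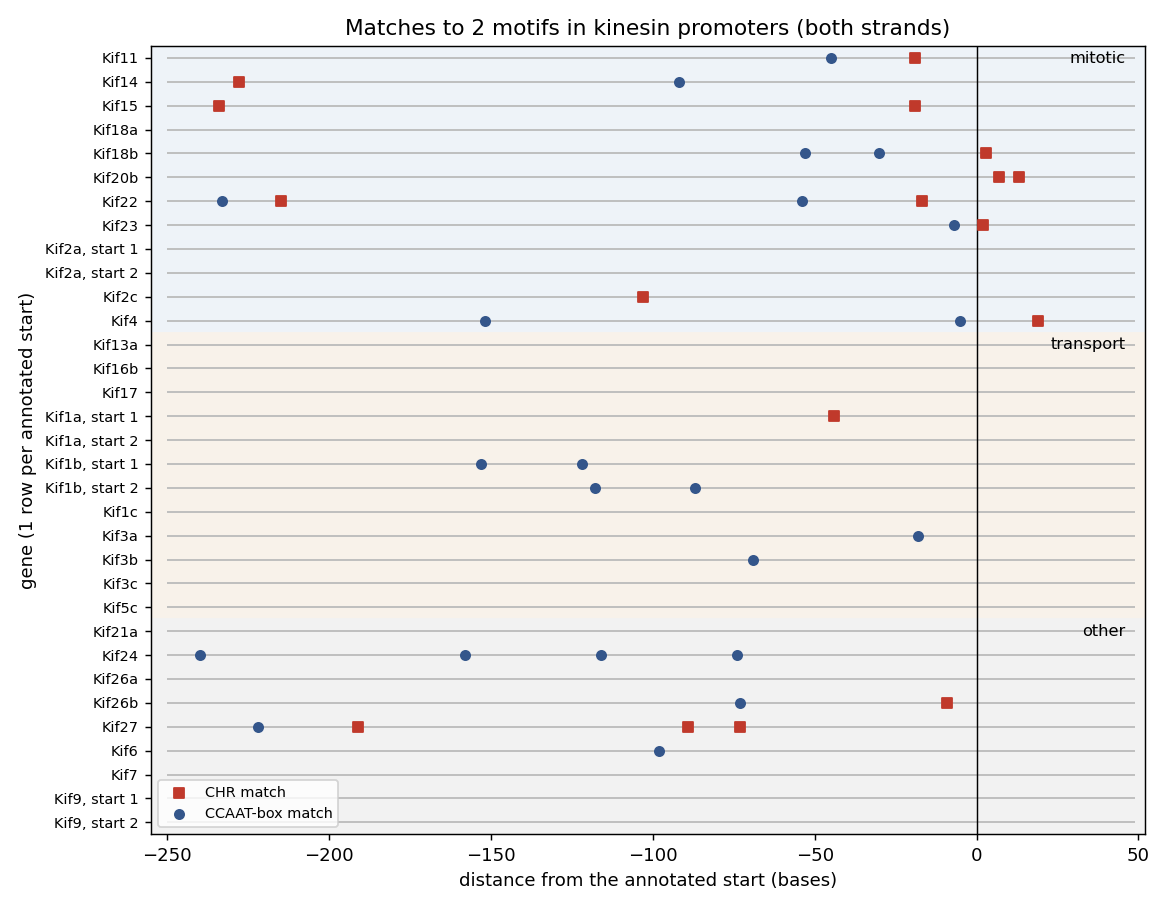
Positions of CHR (red squares) and CCAAT (blue circles) matches on either strand relative to the annotated start at 0, in bases, 1 row for each RefSeq start of the kinesins. CHR matches fall in 9 of 11 mitotic genes, and CCAAT matches without CHR in Kif1b, Kif3a and Kif3b among transport genes.

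Matches to 6 microRNA seeds were counted in the longest annotated 3′ untranslated region of each gene. Mitotic kinesins have short ones, with a median of 580.5 bases, against 3039 for measured transport kinesins and 1259 for all measured genes. The erythroid miR-451a had a match in 0 of 29 measured kinesins, where 2.09% of 10368 genes have one. A match to miR-16-5p was in 9 of 29 (31.0%), where 26% of all genes have one, and these were 1 of 12 mitotic, 6 of 12 transport and 2 of 5 other kinesins. Kif1b has 4, Kif3c 3 and Kif5c, Kif3b and Kif21b 2 each. The 2 matches in Kif3b, at positions 2268 and 2271, overlap and form 1 stretch.

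Over all measured genes, those with a miR-16-5p match had a median log2 ratio for Drosha-null over control of 0.10 and those without it -0.03. Over the 29 measured kinesins the medians were 0.41 with a match and 0.14 without. Over transport kinesins alone they stood the other way, at -0.59 and 0.45, on 6 genes each, Kif5a with its few counts among those with a match. For each of the other seeds, genes with a match also had the higher median over all measured genes. With and without a match these medians were 0.59 and -0.01 for miR-451a and 0.29 and -0.03 for miR-92a-3p. They were 0.20 and -0.04 for miR-17-5p, 0.17 and -0.03 for miR-144-3p and 0.12 and -0.02 for let-7a-5p. Gene length was not accounted for in these medians. Within measured kinesins the other seeds with matches differed in direction, on 3 to 7 genes with a match. Kinesin medians with and without a match were -0.04 and 0.26 for miR-17-5p and -0.04 and 0.16 for miR-144-3p. They were 0.02 and 0.16 for let-7a-5p and 0.47 and 0.14 for miR-92a-3p. The sites printed for Kif1b and Kif3c belong to genes called in opposite directions. Kif3a has 1 match, to miR-92a-3p, and Kif1c has none to any of the 6 seeds. Kif21a has 1 match to miR-144-3p and 1 to miR-16-5p. Whether these sites are used in erythroblasts was not measured here.

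Each of these ratios depends on how the libraries are put on 1 scale. Scaling by total counts raises every log2 ratio for Drosha-null over control by 0.43 and brings the median of all genes to 0.43. On that scale 8 of 29 kinesins were called higher and 0 lower, where 23.0% and 2.70% of all genes were. Kif13a, Kif5b, Kif7 and Kif24 joined the higher calls, and Kif3c and Kif5c, at -0.70 and -0.85, were no longer called. Kif2a, at -0.29 with TMM, came to lie above 0, and in all 23 of 29 kinesins did, against 18 with TMM. Relative to the median of all genes, the order of the kinesins is the same on either scale.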

How the data were processed

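The authors deposited 2 tables, each setting a cKO library beside the same control, with expected counts (unscaled estimates of reads, fractional for some genes) and FPKM, made by the authors from counts, gene length and library size with 0.001 at 0 counts, per the file headers and values. Aligner, counting program and build: not given in the sources used here. Both tables (14640 and 14300 genes, 13882 shared, 0 differing in control counts) were joined by gene ID, a gene listed in 1 table alone was given 0 counts in the other, and counts were rounded. Libraries were scaled by TMM (edgeR 4.0.16, R 4.3.3), with factors of 1.20 for Drosha-null, 0.946 for Ter119-low and 0.885 for control. For genes at 1 CPM or more in either library, log2 ratios with 0.5 counts added and exact 95% Clopper-Pearson counting intervals were computed over all genes, with no test across conditions. The floor of 3 counts came to 0.269, 0.337 and 0.357 CPM. Locations are from GENCODE M21 on GRCm38. Alternatives used total counts, DESeq2 1.42.0 size factors, FPKM, other filters, other class lists and a length correction. The procedure was tested on simulated counts with counting noise alone, so that test does not cover spread between pools. Computations used Python 3.11.15 with pandas 2.3.3, matplotlib 3.10.9, SciPy 1.17.1 and NumPy 2.4.6. Described in full are Kif1b, each kinesin called in any comparison and the 3 most abundant of the mitotic and transport classes. The members, classes and lists were chosen with earlier results of these data known.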

Additional observations from a re-analysis of the deposited data

Results flagged for a closer look

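Kif13a and Kif2a lay on opposite sides of the control in the Drosha-null and Ter119-low libraries, with both counting intervals excluding 1. Kif13a was at a log2 ratio of 0.75 for Drosha-null over control and -0.89 for Ter119-low over control. Kif2a was at -0.29 for Drosha-null over control and 0.17 for Ter119-low over control. None of these 4 ratios was a call, the comparisons share the control library, and with 1 library per group the difference was not tested. On the scale of total counts Kif2a was above 0 in both comparisons, while Kif13a kept its opposite signs.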

How the results depend on the processing

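No paired analysis was possible because each group has 1 library. Over the 3 comparisons, 42 counts of calls under an alternative stayed within 1.5 times and 12 did not, and 68 medians moved by less than the half-width of a typical member's counting interval and 10 by more. No called kinesin changed sign under any alternative run. For Drosha-null over control, total counts gave 8 kinesins higher and 0 lower, with medians of 0.58 for all and 0.51 for mitotic kinesins, and deposited FPKM with 0.1 added gave 7 and 0, with 0.57 and 0.51. Totals without ribosomal RNA and the 10 most abundant genes gave 1 lower (Kif3c lost) and a mitotic median of 0.25, a ratio of 1.5 gave 7 higher and 4 lower, and centring on length gave a mitotic median of -0.13. For Ter119-low over control, FPKM gave 1 lower. For Drosha-null over Ter119-low, total counts gave 7 higher with medians of 0.65 for all and 0.28 for mitotic kinesins, FPKM gave 0.64 and 0.28, a ratio of 1.5 gave 7 higher and 2 lower, and centring on length gave 2 higher, with Kif1b and Kif16b lost. Total counts shift all ratios of a comparison by 1 constant, FPKM with 0.1 added moves low genes by differing amounts, and length centring subtracts the length trend. The tolerance for transport medians is wide: a filter of 5 CPM gave 0.45 for Drosha-null over control (a mitotic minus transport difference of -0.37), and counting all non-mitotic members as transport gave 0.56 (-0.48), beside 0.08 (0.00) as reported. With 1 library per group the spread between pools is unknown.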
